A study of Homo sapiens with 6 samples.

Results

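The genes described here take up glutamate or convert it: the plasma membrane carriers SLC1A1 and SLC1A3, glutamine synthetase GLUL, glutamate dehydrogenase GLUD1, the aspartate aminotransferases GOT1 and GOT2, the alanine aminotransferase GPT2, the glutamate decarboxylase GAD1 and the oxoprolinase OPLAH. They were chosen because glutamate is a product of prostate-specific membrane antigen (PSMA, encoded by FOLH1), and their members were all probe sets that the platform annotation pairs with exactly 1 of these 9 symbols. This gave 14 of the 22277 probe sets on the array, for 8 of the 9 genes. No probe set was paired with GPT2, which was not analysed here. Of the 14 probe sets, 10 passed the filter on low values (an intensity of at least 16, or log2 4, in at least 3 of the 6 arrays), and they belong to 7 genes; each of these 10 reached log2 4 in all 6 arrays. The other 4 probe sets, all 3 of GAD1 and 1 of SLC1A1, lay under log2 4 in every array.

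RNA came from LNCaP, an androgen-responsive line of human prostate cancer cells that expresses PSMA, grown in RPMI medium. The control group was 3 arrays of cells labelled untreated, and the knockdown group was 3 arrays of LNCaP cells transduced with a retroviral short hairpin RNA against PSMA. The labels do not say whether control cells carried an empty vector, whether the knockdown cells were 1 clone or a pool, or whether each replicate was its own culture. The p-values therefore reflect variation among arrays, which may be technical only. The comparison asks which transcripts differ in cells with less of this enzyme.

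Glutamate enters cells through sodium-coupled carriers of the SLC1 family, of which SLC1A1 is known as the neuronal and epithelial type and SLC1A3 as the glial type. Inside the cell, aminotransferases pass its amino group to oxaloacetate or pyruvate and GLUD1 releases it as ammonia, both yielding alpha-ketoglutarate for the citric acid cycle. GLUL adds ammonia to make glutamine, GAD1 removes a carboxyl group to make the transmitter GABA, and OPLAH returns oxoproline from glutathione turnover to the glutamate pool. PSMA releases glutamate outside the cell from N-acetylaspartylglutamate and from folate polyglutamates.

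The knockdown and the cell identity were checked first. The 3 bright probe sets shared by FOLH1 and its near-identical copy FOLH1B were lower in all knockdown arrays, by log2 differences of -2.72 to -2.23, and averaged 7.82 or more on the log2 scale in knockdown cells, so signal remained there. Of 8 prostate luminal and LNCaP markers, 6 had a probe set and all 6 passed the filter, with a mean log2 level of 9.08 to 9.15 in control and 8.94 to 9.12 in knockdown arrays. This mean hides moves in both directions. In control and knockdown arrays KLK3 averaged log2 8.25 and 7.54, and HOXB13 8.84 and 8.59. KLK2 averaged 9.35 and 9.76, and TMPRSS2 7.70 and 7.99. KRT8, at 8.92 and 8.88, and KRT18, at 11.57 in both groups, moved little. The mean log2 level of leukocyte markers was 3.75 to 3.98 in control and 3.80 to 3.86 in knockdown arrays. That of fibroblast markers was 4.32 to 4.37 and 4.26 to 4.46, and that of endothelial markers 4.16 to 4.21 and 4.21 to 4.28. Among markers with a probe set, 2 of 3 leukocyte and 2 of 3 endothelial ones passed the filter. So did 2 of 4 fibroblast and 1 of 2 basal prostate markers. The brightest of these, COL1A1, averaged log2 6.39 in control and 6.41 in knockdown arrays. Passing the filter therefore does not tell these cell types apart. The arrays' own controls separated the groups: all 18 hybridisation control probe sets were lower in every knockdown array, and the log2 ratio of 5′ to 3′ signal differed by -0.82 for beta-actin, -0.96 for the poly-A control dap and -0.10 for GAPDH. Array processing and group therefore cannot be told apart, and the part of these differences in the results that follow was not tested.

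Of the 7 genes tested, 2 were lower in knockdown cells (SLC1A1 and GOT2), 2 were higher (GLUL and SLC1A3) and 3 were not called (GLUD1, GOT1 and OPLAH). A gene was called lower or higher where its Benjamini-Hochberg adjusted p, over all 9241 genes in the limma fit, was under 0.05. Across all genes tested 16.5% were called lower and 19.4% higher, 35.9% in all, so calls were common in this comparison. The arrays of the 2 groups did not overlap for 4 of the 7 genes, against 49.4% of all genes tested. None of the 7 changed 2-fold. The median difference over the 7 genes was -0.04 on the log2 scale, and that over all genes was 0.03.

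**Figure D1:**
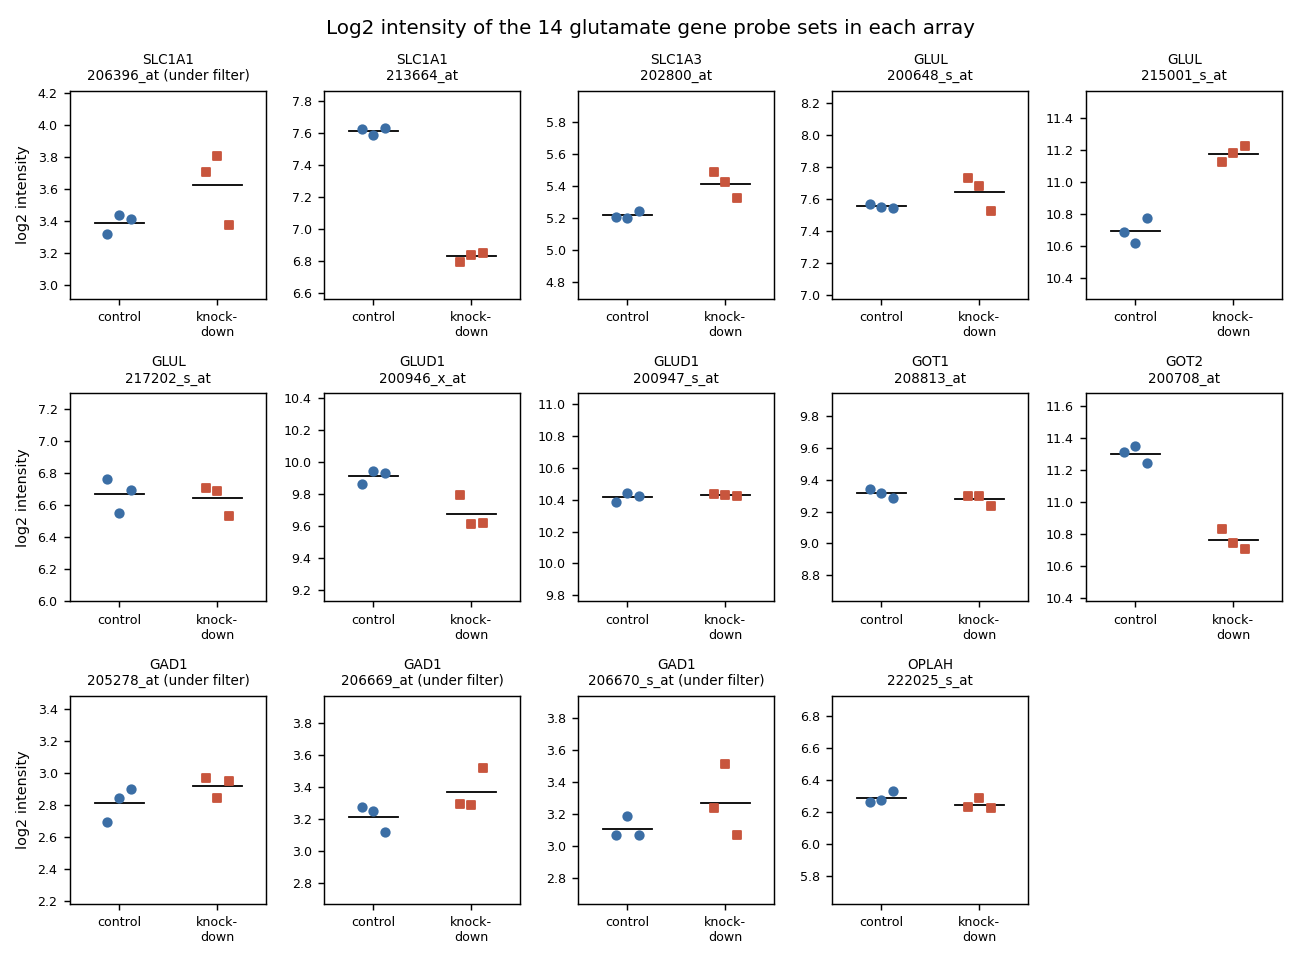
Log2 intensity (vertical axes, each spanning the same range around its own probe set) of the 14 probe sets in 3 control arrays (blue circles) and 3 knockdown arrays (red squares), with black lines at the group means. The groups lie far apart for SLC1A1 213664_at, GOT2 200708_at and GLUL 215001_s_at, and overlap for GOT1, OPLAH, GLUD1 200947_s_at and the other GLUL probe sets; 4 panels are under the filter in every array.

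The carrier SLC1A1, which brings glutamate, aspartate and cysteine into the cell, had the largest change among the tested members. Its probe set 213664_at measured log2 7.63, 7.59 and 7.63 in the control arrays and 6.80, 6.84 and 6.85 in the knockdown arrays. All knockdown arrays lay below all control arrays, and the gap between groups was many times the spread within either. The means were 7.62 ± 0.02 and 6.83 ± 0.03 (SD, n = 3), a log2 difference of -0.79 (SE 0.05), or 1.72-fold lower (limma adjusted p = 3.3e-05). This fall ranked 169th lowest of the 9241 genes. The other SLC1A1 probe set, 206396_at, was at log2 3.32 to 3.44 in control and 3.37 to 3.81 in knockdown arrays, under the filter in all 6, so it gave no second reading of the fall. As measurements were made on whole cultures, fewer cells expressing a gene and less RNA per cell cannot be told apart.

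SLC1A3, the carrier best known from astrocytes, was dim and slightly higher in knockdown cells. It measured log2 5.21, 5.21 and 5.24 in the control arrays and 5.49, 5.43 and 5.33 in the knockdown arrays. The groups did not overlap, but the lowest knockdown array lay close to the controls. The log2 difference was 0.19 (SE 0.06), 1.14-fold higher at a limma adjusted p of 0.0317. The call was lost when any array other than knockdown replicate 3 was left out (adjusted p = 0.0559 to 0.0925), under a trended variance model (adjusted p = 0.0908), with low values raised to log2 4 (adjusted p = 0.0518) and with the replicate number as a block (adjusted p = 0.0524), and over all alternatives its adjusted p ran from 0.00749 to 0.0925. Raising low values, done without the filter, left the SLC1A3 difference at 0.19. The 2 carriers were set against each other within each array, as the log2 ratio of SLC1A1 to SLC1A3 signal. This ratio was 2.40 ± 0.02 in control and 1.42 ± 0.11 in knockdown arrays (SD, n = 3), a difference of -0.98, and the groups did not overlap. In an exact permutation test, two-sided, p was 0.1, and no smaller value is possible with 3 arrays a group (0.1 after adjustment over the 3 ratios of members tested). As 1 carrier was called lower and the other higher in these same arrays, the ratio is not separate support for either call.

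The aminotransferases GOT1 and GOT2 catalyse the same reaction between glutamate and aspartate, GOT1 in the cytosol and GOT2 in mitochondria, where together they form part of the malate-aspartate shuttle. GOT2 was lower in knockdown cells. Its only probe set measured log2 11.32, 11.35 and 11.24 in the control arrays and 10.83, 10.75 and 10.71 in the knockdown arrays. Every knockdown array lay below every control array. The log2 difference was -0.54 (SE 0.06), 1.45-fold lower (limma adjusted p = 0.000391), and it ranked 377th lowest of all genes tested.

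GOT1 was not called. It measured log2 9.34, 9.31 and 9.28 in the control arrays and 9.30, 9.30 and 9.23 in the knockdown arrays. The groups overlapped. The log2 difference was -0.04 with a 95% interval of -0.15 to 0.08 (limma adjusted p = 0.586), so a fall of the size seen for GOT2 lies outside the interval for GOT1. Within arrays, the log2 ratio of GOT1 to GOT2 signal was -1.99 ± 0.04 in control and -1.49 ± 0.04 in knockdown arrays (SD, n = 3), a difference of 0.50, with no overlap between groups and the smallest p this design allows in the exact permutation test (p = 0.1, two-sided). This ratio restates the values above, so it is not separate support for the GOT2 call or for an unequal change. By itself it does not tell which of these enzymes' signals changed.

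GLUL, the only enzyme that makes glutamine from glutamate and ammonia, was higher in knockdown cells on its brightest probe set, 215001_s_at. This probe set measured log2 10.69, 10.62 and 10.78 in the control arrays and 11.13, 11.18 and 11.22 in the knockdown arrays. The groups were well separated. The log2 difference was 0.49 (SE 0.06), 1.40-fold higher at a limma adjusted p of 0.000777, 399th highest of all genes tested.

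The other GLUL probe sets did not follow. Probe set 200648_s_at measured log2 7.56, 7.55 and 7.54 in the control arrays and 7.73, 7.68 and 7.52 in the knockdown arrays, a difference of 0.09 with a 95% interval of -0.06 to 0.24. Probe set 217202_s_at measured 6.76, 6.55 and 6.69 against 6.71, 6.69 and 6.53, a difference of -0.03 with an interval of -0.20 to 0.15. In both, knockdown arrays lay on either side of control arrays, and neither passed the test in a limma fit over 13921 probe sets (adjusted p = 0.313 and 0.811). Within arrays, the log2 ratio of 215001_s_at to 200648_s_at was higher in knockdown arrays by 0.40 and that to 217202_s_at by 0.51, both without overlap and both at p = 0.1 in an exact permutation test, two-sided (0.1 after adjustment over the 3 pairs of probe sets tested). These ratios restate the values above and are not separate support for the disagreement. The GLUL result therefore belongs to 1 of its 3 probe sets; with their mean the log2 difference was 0.18 (limma adjusted p = 0.0317). Where each probe set lies along the transcript was not used here.

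GLUD1, the mitochondrial dehydrogenase that releases ammonia from glutamate, also had probe sets that disagreed. Its brighter one, 200947_s_at, measured log2 10.39, 10.44 and 10.42 in the control arrays and 10.44, 10.43 and 10.42 in the knockdown arrays. These values overlapped throughout, with a log2 difference of 0.01 and a 95% interval of -0.09 to 0.12 in the gene fit (limma adjusted p = 0.853). Probe set 200946_x_at measured 9.86, 9.95 and 9.93 against 9.80, 9.62 and 9.62, without overlap, a log2 difference of -0.24 (SE 0.07, limma adjusted p = 0.028 over probe sets). That call was lost without control replicate 2 or 3 or knockdown replicate 2 or 3 (adjusted p = 0.0725 to 0.0957), with low values raised to log2 4 (adjusted p = 0.0723) and with the replicate block (adjusted p = 0.0548). With low values raised its difference was still -0.24, as all its values lie above log2 4. Within arrays, its log2 ratio to 200947_s_at was lower in knockdown arrays by -0.25, at p = 0.1 in the exact permutation test, two-sided. Probe sets ending in _x_at can match several transcripts, and GLUD1 has a near-identical copy, GLUD2, with which no probe set was paired, so this signal cannot be ascribed to GLUD1 alone. Set against GLUD1 within arrays, GLUL signal was higher in knockdown cells by a log2 difference of 0.47, or 0.30 with the mean of each gene's probe sets, again at p = 0.1 in the exact permutation test, two-sided.

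OPLAH, which opens the ring of oxoproline to give glutamate, did not pass the test. It measured log2 6.26, 6.28 and 6.33 in the control arrays and 6.23, 6.29 and 6.22 in the knockdown arrays, and the groups overlapped. The log2 difference was -0.04 with a 95% interval of -0.16 to 0.07 (limma adjusted p = 0.537). GAD1, which makes GABA from glutamate, was under the filter on all 3 of its probe sets. They lay between log2 2.69 and 3.27 in control and between 2.84 and 3.52 in knockdown arrays, and GAD1 expression was not detectable above this level in either group. On 206669_at every knockdown array lay above every control array, by a mean of 0.15 on the log2 scale, but values this low were not tested.

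**Figure D2:**
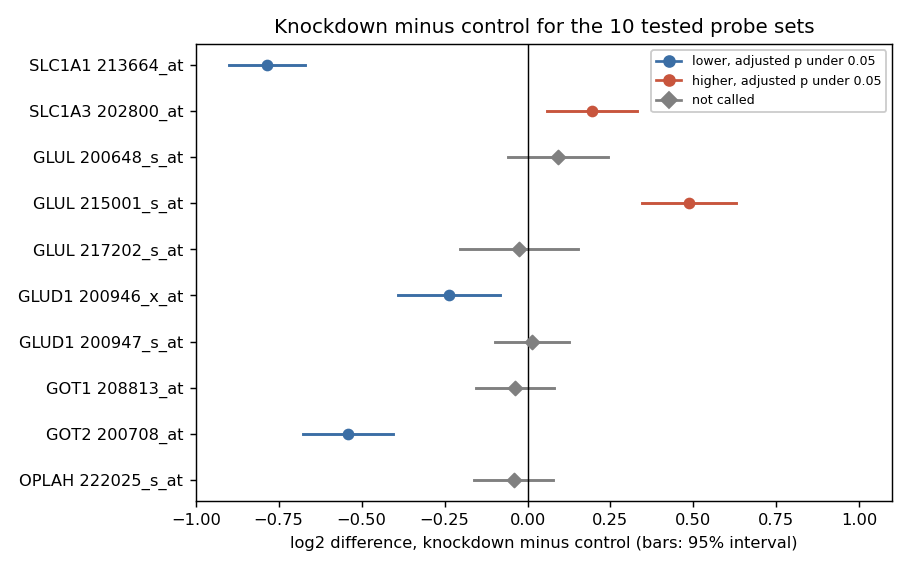
Log2 difference, knockdown minus control (horizontal axis), of the 10 probe sets past the filter, from limma over 13921 probe sets, with 95% intervals as bars; blue and red mark lower and higher calls at an adjusted p under 0.05, and grey diamonds were not called. The intervals of SLC1A1, GOT2 and GLUL 215001_s_at lie far from 0, those of SLC1A3 and GLUD1 200946_x_at lie near it, and 5 probe sets have intervals that include it.

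Counted by probe set, 3 of the 10 tested were called lower and 2 higher, against 18.2% lower and 16.8% higher among all 13921 probe sets tested and 35.0% in all. Groups did not overlap for these 5 probe sets, against 48.8% of all probe sets tested. Both shares describe members whose number is small, and 2 of the 5 calls, those of SLC1A3 and GLUD1 200946_x_at, were the ones lost when single arrays were left out.

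**Figure D3:**
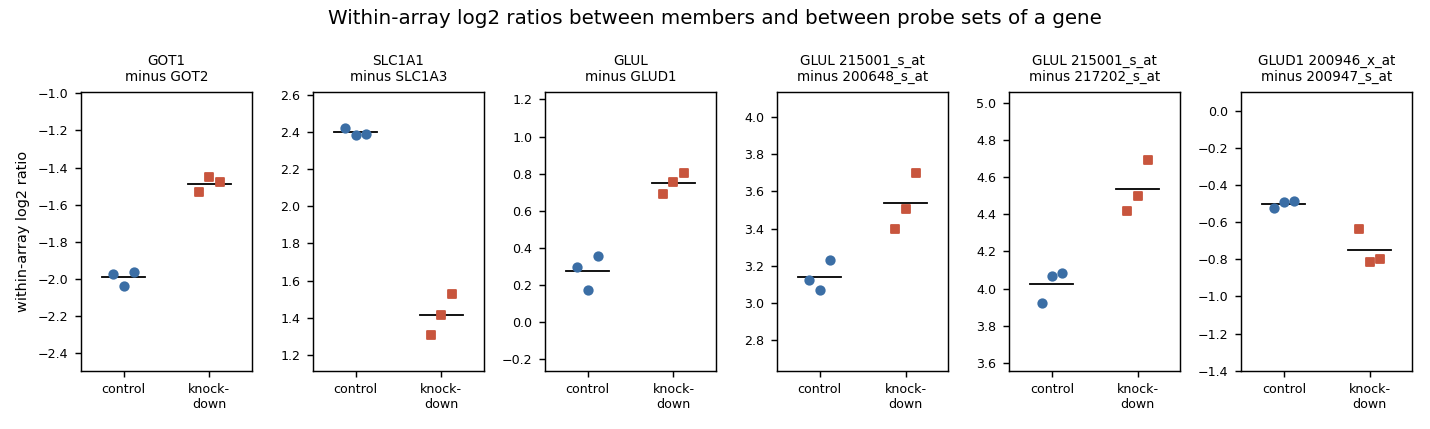
Within-array log2 ratio (vertical axes, each spanning the same range around its own values) of 3 pairs of members, each gene by its brightest probe set, and of 3 pairs of probe sets of 1 gene, in 3 control arrays (blue circles) and 3 knockdown arrays (red squares), with black lines at the group means. No panel has overlapping groups; the knockdown minus control difference is -0.98 for SLC1A1 to SLC1A3, 0.50 for GOT1 to GOT2 and 0.47 for GLUL to GLUD1.

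The stretches before start sites of members were also searched for motifs, and their part in the differences above was not tested. Those of SLC1A3, GLUD1 and GAD1 were searched but are not printed. Printed here are stretches for the carrier with the largest change, GLUL and both aspartate aminotransferases. Each is the 250 bases before a start site in RefSeq on GRCh38.p14, 5′ to 3′ on the gene's strand: chr9:4490218-4490467 on the plus strand for SLC1A1, and on the minus strand chr1:182391791-182392040 for the more upstream of 2 GLUL starts, chr10:99430625-99430874 for GOT1 and chr16:58734317-58734566 for GOT2. Capitals mark matches to the motifs described next.
SLC1A1: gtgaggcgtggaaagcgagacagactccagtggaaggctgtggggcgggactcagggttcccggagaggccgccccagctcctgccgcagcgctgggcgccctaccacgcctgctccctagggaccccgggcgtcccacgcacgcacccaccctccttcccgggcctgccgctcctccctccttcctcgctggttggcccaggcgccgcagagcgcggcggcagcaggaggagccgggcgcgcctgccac
GLUL: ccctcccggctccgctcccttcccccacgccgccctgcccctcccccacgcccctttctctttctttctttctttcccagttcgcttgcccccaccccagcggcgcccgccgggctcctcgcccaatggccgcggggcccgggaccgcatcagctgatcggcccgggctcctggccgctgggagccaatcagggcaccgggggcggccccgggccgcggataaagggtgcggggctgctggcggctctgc
GOT1: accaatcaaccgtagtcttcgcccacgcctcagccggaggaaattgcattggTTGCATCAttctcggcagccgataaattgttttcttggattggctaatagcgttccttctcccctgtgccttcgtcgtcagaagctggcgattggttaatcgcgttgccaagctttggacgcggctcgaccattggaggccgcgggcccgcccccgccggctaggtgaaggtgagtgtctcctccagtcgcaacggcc
GOT2: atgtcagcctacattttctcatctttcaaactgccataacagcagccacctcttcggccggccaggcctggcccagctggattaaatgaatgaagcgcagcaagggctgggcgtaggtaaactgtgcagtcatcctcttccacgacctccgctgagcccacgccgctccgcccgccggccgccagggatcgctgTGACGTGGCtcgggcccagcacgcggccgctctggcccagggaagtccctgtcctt

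Of the 9 members, 7 had at least 1 such window, 10 windows in all. They were searched on both strands for TGATGNAA, the core of the element bound by ATF4 with C/EBP factors, for TGACNNNGC, the core of the antioxidant response element, and for the E-box CACGTG. No match overlapped another. TGATGNAA was found in 3.14% of all 35116 windows and in 2 of the members' 10: in GOT1, on the opposite strand from 198 to 191 bases before the start, and before the first of 3 SLC1A3 starts, from 220 to 213 bases before it. TGACNNNGC was found in 10.9% of all windows and in 2 of the 10: in GOT2, from 56 to 48 bases before the start, and before the second SLC1A3 start. CACGTG was found in 6.34% of all windows and in 0 of the 10. The SLC1A1, GLUL, GLUD1 and GAD1 windows held none of these letters. A match is a description of the letters and not a site shown to be used.

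Genes around these members were taken from 7 lists of glutamate and glutamine biology. Of 96 listed genes, 60 were tested, and 21 of them were lower and 8 higher in knockdown cells, against 16.5% lower and 19.4% higher over all 9241 genes tested. The median log2 difference was -0.05 against 0.03 over all genes. With each array centred on its median the split was 20 lower and 14 higher, beside 14.3% lower and 24.3% higher over all genes. Both counts of lower genes include the hairpin's target FOLH1, lowered by design, and its near-identical copy FOLH1B. The lists were also chosen with earlier results of these data known, so the counts are no test against the share over all genes. The lists are small and their counts describe only the genes in them.

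Among carriers, 4 of 10 tested genes were lower and 0 higher in limma, against 16.5% lower and 19.4% higher over all genes (0 higher also at an unadjusted p under 0.05, and 1 higher without control replicate 3), with a median of -0.16. The neutral amino acid carrier SLC1A4, a relative of SLC1A1, was lower by a log2 difference of -0.54, and 2 of its other 3 probe sets were lower too, at -0.47 and -0.43; the last was under the filter. The amino acid exchanger SLC7A5 was lower by -0.49 and the glutamine carrier SLC1A5 by -0.37. With low values raised to log2 4, SLC1A5 was not called (adjusted p = 0.0608) though its difference was the same.

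Among enzymes of glutamine, GABA and transamination, 5 of 11 were lower and 0 higher in limma, against 16.5% lower and 19.4% higher over all genes (0 higher also at an unadjusted p under 0.05), with a median of -0.21. The largest fall was in OAT, the mitochondrial aminotransferase that links ornithine to glutamate. It measured log2 9.39, 9.41 and 9.57 in the control arrays and 8.21, 8.26 and 8.08 in the knockdown arrays, well apart, a log2 difference of -1.28 (SE 0.07), 2.42-fold lower (limma adjusted p = 2.4e-05). PSAT1, which uses glutamate in serine synthesis, was lower by -0.89, and ASNS, which uses glutamine to make asparagine, by -0.53.

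Of 8 genes of the malate-aspartate shuttle and mitochondrial carriers, 5 were lower and 1 higher, against 16.5% lower and 19.4% higher over all genes, with a median of -0.21. Without control replicate 2 the count was 2 lower and 0 higher, and without knockdown replicate 2 it was 3 lower and 0 higher. The ketoglutarate dehydrogenase subunit OGDH was lower by -0.33, the mitochondrial glutamate carrier SLC25A22 by -0.28 and the aspartate-glutamate carrier SLC25A12 by -0.28. The SLC25A12 call was lost without control replicate 2 (adjusted p = 0.064) or knockdown replicate 2 (adjusted p = 0.0587).

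In the proline and glutathione branches 3 of 10 were lower and 1 higher, against 16.5% lower and 19.4% higher over all genes, with a median of -0.02. The split turned to 3 lower and 4 higher at an unadjusted p under 0.05, with median centring, with a trended robust variance model and with array weights, and 2 were higher without knockdown replicate 3. The 1 gene called higher was ALDH4A1, the last enzyme of proline breakdown, whose product is glutamate. It measured log2 6.27, 6.39 and 6.53 in the control arrays and 7.43, 7.13 and 7.25 in the knockdown arrays, without overlap, a log2 difference of 0.87 (SE 0.09, limma adjusted p = 0.000453), and its other probe set was higher by 0.98. GCLM, a subunit of the first enzyme of glutathione synthesis, was lower by -0.61, and PYCR1, which makes proline, by -0.37.

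Among amidotransferases that use glutamine, 2 of 8 were lower and 4 higher, against 16.5% lower and 19.4% higher over all genes, with a median of 0.11; without control replicate 2 or knockdown replicate 2, 2 were higher. GFPT1, the first enzyme of hexosamine synthesis, was lower by -0.53 on its brighter probe set and -0.47 on the other. CAD, which starts pyrimidine synthesis, was higher by 0.45 and NADSYN1, which makes NAD, by 0.27; the NADSYN1 call was lost without control replicate 2 (adjusted p = 0.0845), knockdown replicate 1 (0.0898) or knockdown replicate 2 (0.0917). None of 9 tested glutamate receptor genes was called in limma, against 3 higher and 0 lower at an unadjusted p under 0.05, and under other settings up to 4 were called higher and up to 1 lower. GRIN2B, with the largest difference, was at 0.35 (adjusted p = 0.197). Its signal was near the filter, at a mean of log2 3.97 in control and 4.32 in knockdown arrays. With low values raised to log2 4 its difference was 0.18, and its other probe set, under the filter, differed by 0.07. Of 4 tested genes for PSMA and its substrate, FOLH1 and FOLH1B were lower by log2 differences of -0.79 and -2.28. The FOLH1 probe set averaged log2 6.38 in control arrays, and that of FOLH1B 11.06. The FOLH1B probe set ends in _x_at and can match several transcripts, so its fall cannot be ascribed to FOLH1B alone. The bright probe sets shared by both genes differed by -2.72 to -2.23, so -0.79 alone does not measure the fall of the target. NAALADL1 and NAALAD2, a PSMA relative, were higher. This count of 2 higher was 1 with a trended robust variance model and without control replicate 1 or 3 or any single knockdown replicate. NAALAD2 was higher by 0.49, and its call was lost without knockdown replicate 3 (adjusted p = 0.0515). With low values raised to log2 4, the calls of FOLH1, NAALAD2, SLC25A12 and NADSYN1 were lost at unchanged differences (adjusted p = 0.0605 to 0.0894). The NAALADL1 call was lost there too.

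**Figure D4:**
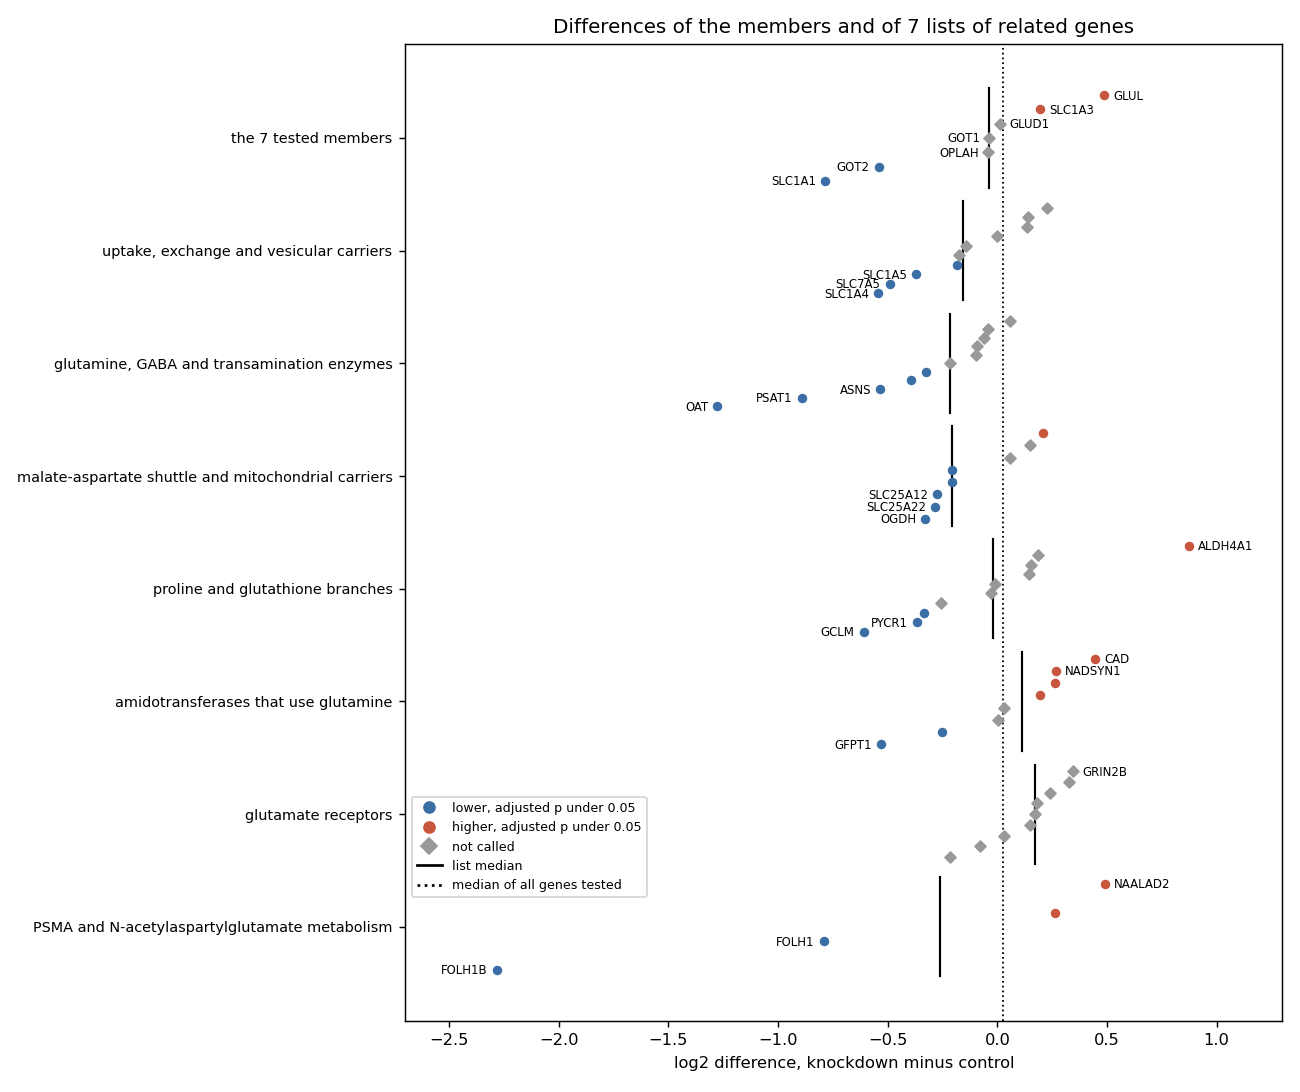
Log2 difference, knockdown minus control (horizontal axis), of the 7 tested members and of the tested genes of 7 related lists (rows), 1 point per gene; blue and red mark lower and higher calls at an adjusted p under 0.05, grey diamonds were not called, black bars are list medians and the dotted line is the median of all genes tested, 0.03. OAT at -1.28 and ALDH4A1 at 0.87 stand at the ends of the metabolic lists, and the list medians run from -0.26 to 0.17. The -0.26 is that of the PSMA list, whose 4 tested genes include the hairpin's target FOLH1 and its copy FOLH1B. The lowest median of the other lists is -0.21.

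The genes whose array-by-array pattern lay closest to that of SLC1A1 were found by the root mean square distance between log2 values centred on each gene's own mean over the 6 arrays. They were the androgen-glucuronidating enzyme UGT2B15 at a distance of 0.02, its relative UGT2B28 at 0.03 and the choline phosphotransferase CHPT1 at 0.04, where the median distance of all 9240 other genes was 0.41. Their own log2 differences were -0.78, -0.76 and -0.82. With 2 groups of arrays this measure mostly picks genes that fell by a like amount. UGT2B15 and UGT2B28 are alike in sequence and may share signal.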

How the data were processed

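Per the labels' protocols, biotinylated cRNA was made from 2 ug of total RNA and hybridised to 1-colour Affymetrix arrays. The values analysed were probe set intensities deposited by the authors on a linear scale after GCRMA, which corrects background, normalizes between arrays and summarises probes, per the submitters' processing notes; of its version and settings, nothing is given in the sources used here. Arrays carry no read depth, and their number limits the precision.

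Intensities were log2-transformed. Of 22277 probe sets, 19064 had 1 gene symbol in the platform annotation. After the filter, the brightest probe set stood for each gene (9241 genes), and a second fit used every probe set past the filter. Both used limma 3.58.1 in R 4.3.3 (lmFit, eBayes) with Benjamini-Hochberg adjustment over all features tested. Ratios used exact permutation tests on the same values as the fits, so they are not separate support for the calls. Alternatives covered the filter, a floor, scaling, variance model, array weights, replicate block, probe set kind, threshold and each array left out. The floor raised low values to log2 4 in place of the filter, so 11963 genes were tested. A gene above log2 4 in every array keeps its difference there. Where the call of such a gene was lost, this reflects the changed fit and adjustment over all genes, not low values of that gene.

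Every member and probe set is named, with up to 3 called genes of each list by size (or the largest, where none was called), the target and the 3 profiles nearest to the member with the largest change. The members and lists were chosen with earlier results of these data known. The planned ratio of GPT2 to GOT1 could not be made.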

Additional observations from a re-analysis of the deposited data

How the results depend on the processing

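The calls of SLC1A1, GOT2 and GLUL 215001_s_at kept their direction and stayed past the threshold under every alternative that measured them, with log2 differences of -0.80 to -0.75, -0.58 to -0.51 and 0.45 to 0.53. The 2 members called lower stayed 2 throughout. The 2 called higher became 1, both by gene and by probe set, as SLC1A3 was lost with low values raised to log2 4, a trended robust variance model, an adjusted p under 0.01 or the replicate block. By probe set SLC1A3 was also lost with no filter. With at least 3 arrays at log2 6 the count was 1 because SLC1A3 was not tested. Without _x_at and _s_at probe sets GLUL was not tested, and the 1 called was SLC1A3 (limma adjusted p = 0.037). Leaving out single arrays gave 1 to 2 higher, and 2 to 3 probe sets lower. Deviations of same-numbered arrays correlated at 0.11, 0.0008 and 0.18, and those of differently numbered arrays at -0.15 to 0.05. Control replicate 2 did not correlate best with its own number. With 3 arrays a group, whether replicate numbers pair the arrays cannot be told from these values. With the replicate block, 2 probe sets were called lower.

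In the related lists, the 21 lower genes became 13 without _x_at and _s_at probe sets, which tests fewer genes. The 8 higher genes became 4 with low values raised, 14 with median centring, 16 with array weights and 3 at an adjusted p under 0.01, and ran from 4 to 8 with single arrays left out, at 5 without knockdown replicate 1 and 4 without knockdown replicate 2. Differences near 0 changed sign without being called: OPLAH at 0.00073 and GLUL 217202_s_at at 0.0062 with quantile normalization, the latter at 0.0082 with median centring and 0.033 with array weights, and GLUD1 at -0.11 with the mean of its probe sets. With single arrays left out, GLUD1 200947_s_at ran from -0.0023 to 0.025 and GLUL 217202_s_at from -0.085 to 0.029. The causes were not tested. Signal near background limits GAD1, SLC1A1 206396_at and SLC1A3, and GRIN2B among the related genes.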
